A study of Mus musculus with 5 samples.

Results

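The 10 genes of methionine, threonine and one-carbon metabolism examined here were measured in ribosome profiling data from undifferentiated mouse embryonic stem cells (mESCs): Mat2a, Mat2b, Ahcy, Mtr, Tdh, Gldc, Shmt1, Shmt2, Mthfd1 and Mthfd2. They were chosen by symbol and by no rule on their values, though with earlier results of these data known. They make up 10 of the 21947 genes with a deposited protein-coding transcript. The value of a gene is that of its protein-coding transcript with the highest mean level over the 5 libraries. The 10 genes have 22 protein-coding and 41 other transcripts in the table, and all of these passed the filter on low values (1 or more CPM in any of the libraries, CPM being the read count scaled to library size with TMM factors).

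The cells were of the 46C line, which the methods describe as grown undifferentiated with LIF, and the labels call all 5 libraries untreated. All lysates came from cells exposed to cycloheximide, which stops ribosomes during elongation, and were treated for 45 min with RNase I (1.3 U), which leaves the RNA inside ribosomes. Standard RIBO-seq (3 libraries) collected ribosomes through a 30% sucrose cushion. AHARIBO RIBO-seq (2 libraries) instead captured ribosomes by their nascent peptides. In that method cells deprived of methionine take up its analogue L-azidohomoalanine (AHA), and the AHA in the growing chain is coupled to 50 µM biotin-DBCO and bound to beads. The methods do not restate an AHA dose for these libraries, and a legend places standard RIBO-seq on the input of the pull-down. Both methods sequenced gel-selected fragments of 25 to 35 nt. The comparison asks how the footprints recovered through the nascent chain compare with those recovered through the cushion. The labels call the libraries of each method biological replicates without naming separate cultures, so p-values measure the spread between these libraries.

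The enzymes belong to linked cycles. In the methionine cycle, methionine is converted to S-adenosylmethionine, the methyl donor of the cell, then to S-adenosylhomocysteine and homocysteine, and is made again from homocysteine with a methyl group from folate. In the folate cycle, units of 1 carbon are taken from serine and glycine in the cytosol and mitochondria and used for purines, thymidylate and methionine. Mouse embryonic stem cells are known for their use of threonine, which threonine dehydrogenase breaks down to glycine and acetyl-CoA. The methionine cycle uses the amino acid that AHA replaces in the AHARIBO labelling.

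The libraries held 6403651 to 9110668 reads on transcripts in standard RIBO-seq and 9972892 to 11150527 in AHARIBO RIBO-seq after duplicate removal, which had taken 43.3% to 43.8% and 44.9% to 47.7% of the reads. Transcripts of one gene share reads. All 8 embryonic stem cell markers (Pou5f1, Sox2, Nanog, Esrrb, Zfp42, Klf4, Tdgf1 and Dppa5a) were present, with summed levels of 1265 to 1361 CPM in standard RIBO-seq and 1158 to 1267 CPM in AHARIBO RIBO-seq. The summed levels of 5 neuronal markers were 42.0 to 43.9 CPM and 39.5 to 39.6 CPM, those of 5 fibroblast markers 5.63 to 6.50 and 5.77 to 5.89 CPM, those of 5 primitive endoderm markers 5.08 to 7.30 and 4.02 to 5.09 CPM, and those of 5 trophoblast markers 11.7 to 15.7 and 10.5 to 14.5 CPM. Most of the neuronal sum came from Tubb3 (means of 36.5 and 32.5 CPM) and most of the trophoblast sum from Tfap2c (10.9 and 10.3 CPM). Of the stem cell markers, Sox2 and Klf4 were lower in AHARIBO than in standard RIBO-seq. Their log2 fold changes were -0.32 and -0.34 (adjusted p = 0.013 and 0.0084 in edgeR's quasi-likelihood test), and 5.12% of the highest coding transcripts passed 0.05. No marker was at 0 in all 5 libraries, and the part of other cells in the results below was not tested. In such bulk lysates, fewer cells of a type and fewer footprints per cell cannot be told apart.

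Because AHARIBO captures a ribosome through AHA at methionine codons, the first 30 coding bases of the main transcripts are shown, from the start codon, with each in-frame ATG in capitals (sequences from Gencode M21, GRCm38).
Mat2a: ATGaacgggcagctcaacggcttccacgag
Mat2b: ATGcctgaaATGccggaggccATGgaacag
Ahcy: ATGtctgataaactgccctacaaagtcgcg
Mtr: ATGaagaaaaccctgcaggatgagattgaa
Tdh: ATGctattccttgggATGctaaaacaggtg
Gldc: ATGcagctgtgtgccagggcatgggggctg
Shmt1: ATGgcagacagggatgccaccctgtgggct
Shmt2: ATGgtatccttctctttgcttcggaccact
Mthfd1: ATGgcaccagcgggaatcctgaacgggaaa
Mthfd2: ATGgcttcagtttccttgttgtctgcgttg

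Only Mat2b and Tdh among the 10 had a further in-frame ATG within these bases. The second methionine codon was codon 4 in Mat2b, codon 6 in Tdh, codon 15 in Shmt1, codon 18 in Mtr, codon 22 in Shmt2, codon 27 in Mthfd1 and codon 29 in Ahcy. It came later in Mat2a (codon 64), Gldc (codon 83) and Mthfd2 (codon 165). Thus 7 of the 10 had it within the first 40 codons, against 43.1% of 11550 highest coding transcripts with an annotated ATG start. The density of methionine codons ran from 1.52 per 100 codons in Mat2a, which has 6 in 395 codons, to 3.94 per 100 in Ahcy, which has 17 in 432. Among all genes tested these densities stood at percentiles 23.5 and 94.1. The deposited Gldc transcript matched the annotation by identifier in another version, and its coding frame is that of the annotated version.

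Mat2a, which encodes the catalytic subunit of the S-adenosylmethionine synthetase of most tissues, lies on chromosome 6 from 72432799 to 72439558 on the minus strand. With libraries given in the order of their replicate numbers, here and below, its level was 126, 131 and 123 CPM by standard RIBO-seq and 127 and 131 CPM by AHARIBO RIBO-seq. The groups overlapped. The log2 fold change, AHARIBO over standard, was 0.02 (SE 0.08, 95% interval -0.13 to 0.18, adjusted p = 0.91 in edgeR's quasi-likelihood test). The region after its stop codon is known to hold hairpins bound by METTL16, an RNA methyltransferase that controls Mat2a splicing and decay in response to S-adenosylmethionine. A search of that region, 1494 nt long, on the transcript's strand for TACAGAGAA and TACAGAAAA found 6 matches, shown with 10 flanking bases on each side, the motif in capitals and numbered from the stop codon.
Mat2a site 1: tggcgtaggtTACAGAGAAgccttcaagc
Mat2a site 2: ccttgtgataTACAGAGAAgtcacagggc
Mat2a site 3: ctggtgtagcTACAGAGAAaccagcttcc
Mat2a site 4: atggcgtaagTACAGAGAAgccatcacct
Mat2a site 5: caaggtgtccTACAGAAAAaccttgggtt
Mat2a site 6: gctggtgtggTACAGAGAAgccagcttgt

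The first site began 40 nt after the stop codon and the others 824, 1003, 1118, 1229 and 1337 nt after it. At least 1 such match stood after the stop codon in 4.04% of 11416 highest coding transcripts, and Mat2a was the only one with 6 or more. A match of letters is a description, and METTL16 binding and methylation were not measured.

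Mat2b, the regulatory subunit of the synthetase (chromosome 11, 40679314 to 40695203, minus strand), was lower than Mat2a per unit length in each library. It stood at 20.9, 21.0 and 21.7 CPM in standard RIBO-seq and 21.9 and 23.1 CPM in AHARIBO RIBO-seq. Both AHARIBO libraries lay above the 3 standard libraries, by little. Its log2 fold change of 0.08 (SE 0.10, 95% interval -0.12 to 0.29) did not pass the test, with an adjusted p of 0.72. A second protein-coding Mat2b transcript, which joins the same frame at codon 11, gave 19.4, 18.8 and 17.1 CPM and 19.3 and 20.8 CPM, with a log2 fold change of 0.11 (adjusted p = 0.63). It holds 96.9% of the coding sequence of the main transcript, so the 2 share reads.

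Ahcy, the hydrolase that splits S-adenosylhomocysteine (chromosome 2, 155059310 to 155074497, minus strand), was measured at 123, 123 and 129 CPM in standard RIBO-seq and 107 and 117 CPM in AHARIBO RIBO-seq, so that both AHARIBO libraries were the lowest. The log2 fold change was -0.16 (SE 0.08, 95% interval -0.31 to 0.00), with an adjusted p of 0.27 in edgeR and 0.0498 without adjustment. The Ahcy values are uncertain in their source. Of the 30-nt windows of the main Ahcy transcript, 79.6% also occurred in transcripts of 4 other genes, and 76.7% in Gm4737 on chromosome 16, annotated as protein-coding. Gm4737 was itself counted at 134, 136, 140, 117 and 128 CPM in the same libraries, and in the shared windows the reads of the 2 genes cannot be told apart. Mat2a shared 15.9% of its windows with the pseudogene Gm9523 and Shmt2 5.31% with Gm15544, and Shmt1 0.672% with other genes, while Mat2b, Mtr, Gldc, Mthfd1 and Mthfd2 shared 0.

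Mtr, the methionine synthase that takes a methyl group from folate (chromosome 13, 12182712 to 12258095, minus strand), has the longest coding sequence of the 10, with 1253 codons and 32 methionine codons. Its transcript had 34.2, 35.8 and 33.8 CPM in standard RIBO-seq and 40.0 and 36.4 CPM in AHARIBO RIBO-seq. Both AHARIBO libraries were above the standard ones. The log2 fold change was 0.14 (SE 0.09, 95% interval -0.03 to 0.32, adjusted p = 0.39 in edgeR). Ahcy and Mtr thus sat on opposite sides, and the log2 ratio of Ahcy over Mtr was lower by 0.30 in AHARIBO RIBO-seq. A two-sided exact permutation of the libraries gave p = 0.1, the smallest p that the 10 splits allow. Adjusted over 5 ratios, this p was 0.25. The difference in the log2 ratio ran from -0.43 to -0.17 with each library left out.

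Threonine dehydrogenase, Tdh (chromosome 14, 63492347 to 63509092, minus strand), had 132, 134 and 133 CPM in standard RIBO-seq, the narrowest spread among the 10 relative to the level. AHARIBO RIBO-seq gave 123 and 117 CPM, both lower. The log2 fold change of -0.15 (SE 0.08, 95% interval -0.30 to 0.01) had an adjusted p of 0.30. With duplicate reads kept, the difference was -0.01. Duplicates made up 43.4% and 36.3% of the Tdh reads of the AHARIBO libraries and 31.3% to 34.2% of those of the standard libraries. Tdh also shares 25.4% of its 30-nt windows with other genes, most with the processed pseudogene Gm13929.

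Gldc, the glycine decarboxylase that opens the glycine cleavage system of mitochondria (chromosome 19, 30098447 to 30175429, minus strand), varied most. It had 61.4, 75.8 and 57.7 CPM in standard RIBO-seq and 68.4 and 59.2 CPM in AHARIBO RIBO-seq, with standard replicate 2 above the other 4 libraries. The log2 fold change was -0.03 (SE 0.09, 95% interval -0.21 to 0.15, adjusted p = 0.90 in edgeR) and became 0.10 without standard replicate 2. The level of Tdh per unit length was 3.97 times that of Gldc on average, and this ratio differed by -0.13 on the log2 scale between the methods (exact permutation p = 0.5, two-sided).

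The serine hydroxymethyltransferases convert serine and tetrahydrofolate to glycine and methylene-tetrahydrofolate, Shmt1 in the cytosol and Shmt2 chiefly in mitochondria. Shmt2 (chromosome 10, 127517139 to 127522444, minus strand) was read at 157, 171 and 168 CPM in standard RIBO-seq and at 140 and 150 CPM in AHARIBO RIBO-seq, without overlap. Its log2 fold change of -0.19 (SE 0.08, 95% interval -0.34 to -0.03) was the largest in size among the 10 and did not pass the test after adjustment (edgeR, adjusted p = 0.16). Shmt1 (chromosome 11, 60788104 to 60811265, minus strand) had 78.4, 84.4 and 82.3 CPM against 80.1 and 76.0 CPM, overlapping, with a log2 fold change of -0.07 (95% interval -0.23 to 0.09, adjusted p = 0.72). Per unit length Shmt2 exceeded Shmt1 2.50-, 2.53- and 2.54-fold in standard RIBO-seq and 2.18- and 2.47-fold in AHARIBO RIBO-seq. This ratio was lower by 0.12 on the log2 scale in AHARIBO RIBO-seq (two-sided exact permutation p = 0.1, adjusted p = 0.25). The difference ran from -0.21 to -0.03 with each library left out.

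Mthfd1 carries 3 cytosolic folate activities on one chain and Mthfd2 the dehydrogenase and cyclohydrolase of mitochondria, which is known to be high in embryonic and dividing cells. Mthfd1 (chromosome 12, 76255298 to 76319803, plus strand) had 154, 163 and 148 CPM in standard RIBO-seq and 148 and 152 CPM in AHARIBO RIBO-seq. Mthfd2 (chromosome 6, 83305691 to 83317606, minus strand) had 84.0, 91.1 and 86.9 CPM and 81.9 and 85.1 CPM. Both pairs of groups overlapped. The log2 fold changes were -0.05 (95% interval -0.20 to 0.11, adjusted p = 0.81) and -0.07 (95% interval -0.23 to 0.09, adjusted p = 0.72). The ratio of Mthfd2 over Mthfd1 was 0.87 per kb of transcript and 1.50 per kb of coding sequence, so that which of the 2 was higher depended on the length used.

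**Figure D1:**
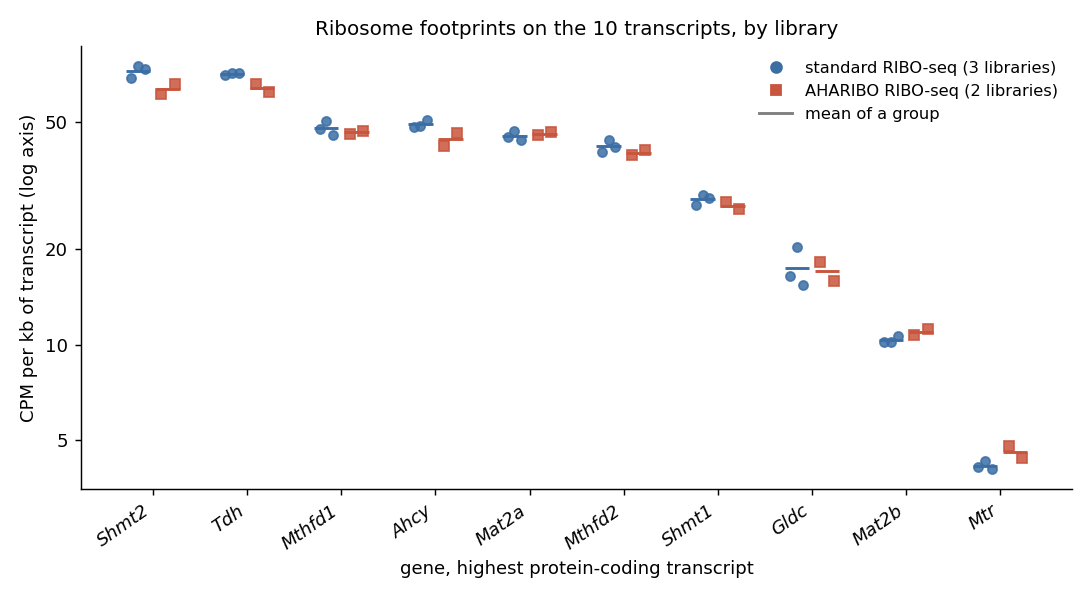
Level of the highest protein-coding transcript of each of the 10 genes in CPM per kb of transcript (log axis), 1 point per library, with the mean of each method as a bar. The genes span 4.34 (Mtr) to 68.6 (Shmt2), and the distances between most genes exceed those between the methods.

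Per kb of transcript, the order of the mean levels was Shmt2 (68.6 CPM per kb), Tdh (68.0), Mthfd1 (47.2), Ahcy (47.1), Mat2a (45.5), Mthfd2 (41.2), Shmt1 (28.1), Gldc (17.2), Mat2b (10.6) and Mtr (4.34). Neighbours whose ranges over the 5 libraries overlapped were Shmt2 and Tdh, Mthfd1 and Ahcy, and Ahcy and Mat2a. The other neighbours kept their order in 5 of 5 libraries. Shmt2 and Tdh both stood at percentile 97.4 of the highest coding transcripts of all genes tested, and Mtr at 57.3. Per kb of coding sequence, Tdh led with 114 CPM per kb, followed by Mat2a (108) and Shmt2 (104). Mthfd1 fell in rank, with 54.5 below Shmt1 at 56.0. Deposited counts do not separate coding reads from reads on other parts of a transcript. The 10 genes together held 0.0950% to 0.102% of the reads of a library.

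None of the 10 genes passed an adjusted p of 0.05 between the methods, in edgeR or in DESeq2, where 4.51% of the 66972 transcripts tested passed in edgeR (2.27% as higher and 2.24% as lower by AHARIBO), and 0.460% in DESeq2. Over the highest coding transcripts of all genes the edgeR share was 5.12%, so a count of 0 among 10 is not far from the background. Unadjusted p-values under 0.05 were found for 2 genes, Ahcy and Shmt2, beside 18.7% of all transcripts and 19.4% of the highest coding ones. The groups did not overlap for 5 genes, above in Mat2b and Mtr and below in Ahcy, Tdh and Shmt2, beside 33.8% of all transcripts and 34.3% of the highest coding ones. The median log2 fold change was -0.06 over the 10 and 0.00 over all genes. As linear ratios, the 95% intervals of the 10 genes lay between 0.79 and 1.25, and a p above the threshold does not show that the methods gave equal levels.

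**Figure D2:**
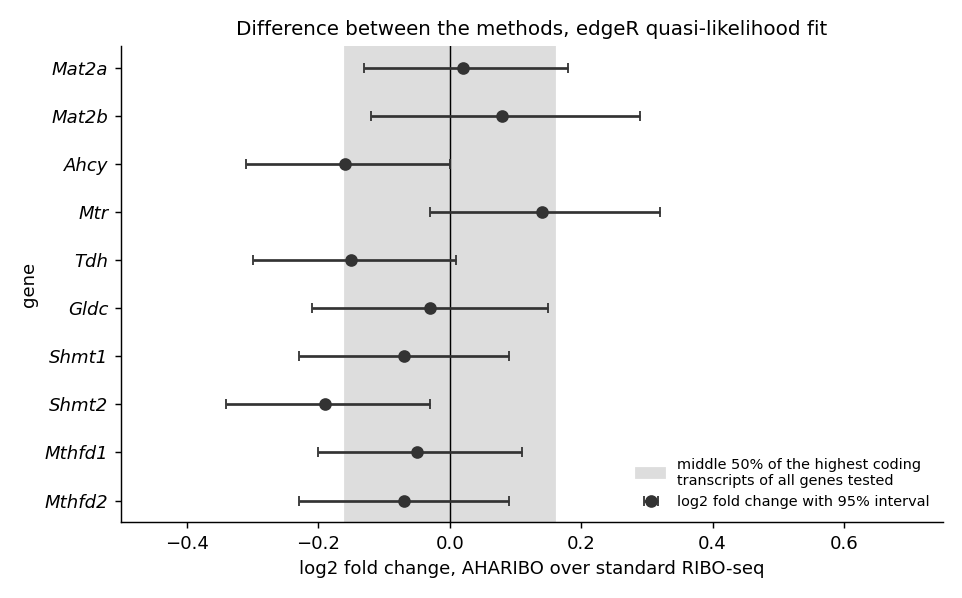
Log2 fold change, AHARIBO over standard RIBO-seq, for the 10 genes with 95% intervals from the edgeR fit, beside the middle 50% of the highest coding transcripts of all genes (grey, -0.16 to 0.16). Shmt2 lies lowest at -0.19 and Mtr highest at 0.14.

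Within the 10, the log2 fold change ran lower in genes with a higher level per kb. Across genes, Pearson's r between CPM per kb and log2 fold change was -0.84 and Spearman's rho -0.81 (n = 10 genes, which share the same libraries), against a rho of -0.18 over 12287 genes. With duplicates kept, these became -0.42 and -0.37 over the 10 genes. Coding length went the other way in all genes, with a rho of 0.28. The median log2 fold change rose from -0.13 in coding sequences of up to 150 codons to 0.11 in those above 1000 codons. Mtr, with 1253 codons, was above 0, while Gldc, with 1025, was at -0.03, and rho over the 10 was 0.16. The density of methionine codons had a rho of 0.01 with the log2 fold change over all genes and -0.28 over the 10.

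**Figure D3:**
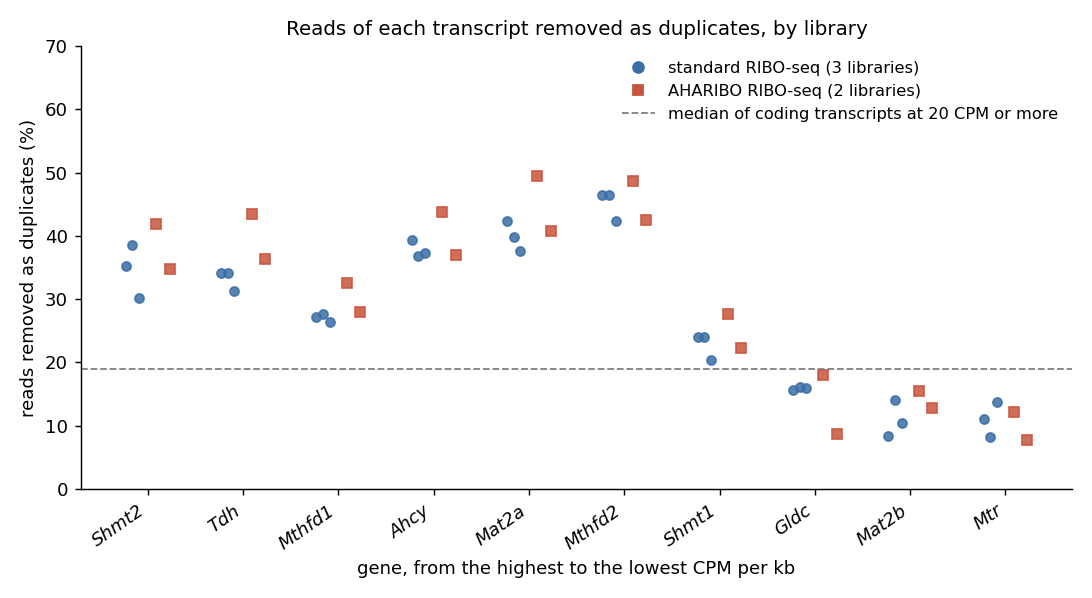
Share of each gene's reads that duplicate removal took, in percent, 1 point per library, with genes ordered from the highest to the lowest CPM per kb. The dashed line marks 19.0%, the median of coding transcripts with a mean of at least 20 CPM, and Mtr, Mat2b and Gldc lie below it in all 5 libraries.

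Duplicate removal took unequal shares of the 10 genes. It removed 42.4% to 48.7% of the Mthfd2 reads and 37.6% to 49.5% of those of Mat2a, but 7.83% to 13.8% of those of Mtr and 8.63% to 18.0% of those of Gldc. Mthfd2 lost more than Shmt2 and Tdh although its level was lower. Pooled over libraries, the share had a rho of 0.78 with the level with duplicates kept over the 10 genes and 0.70 over all genes. With duplicates kept, the mean CPM of Mtr was 0.62 times and that of Mthfd2 1.01 times its value without them, so that the ratio between these genes grew. In AHARIBO replicate 1 the share was the highest of the 5 libraries for Mat2a, Mat2b, Ahcy, Tdh, Gldc, Shmt1, Shmt2, Mthfd1 and Mthfd2.

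Shorter annotated transcripts hold a part of a coding sequence, and their reads give its difference by position. Of the transcripts of the 10 genes, 2 passed an adjusted p of 0.05, both of the retained-intron type and both lower in AHARIBO RIBO-seq (2 of 41 non-coding transcripts, where 2.24% of all transcripts passed as lower). The Ahcy transcript ENSMUST00000146367.1, which contains codons 1 to 73, had 32.0, 31.0 and 33.2 CPM in standard RIBO-seq and 23.4 and 26.6 CPM in AHARIBO RIBO-seq. Its log2 fold change was -0.36 (SE 0.09, adjusted p = 0.017 in edgeR). The Shmt2 transcript ENSMUST00000217682.1, with codons 1 to 77, had 32.9, 37.6 and 35.1 CPM and 26.0 and 29.9 CPM, a log2 fold change of -0.34 (SE 0.09, adjusted p = 0.024). Both were picked after their values were seen. The Ahcy transcript did not pass in DESeq2 (adjusted p = 0.14), with duplicates kept (0.17), or without standard replicate 1 (0.086) or AHARIBO replicate 1 (0.41). The Shmt2 transcript did not pass in DESeq2 (adjusted p = 0.17), with duplicates kept (0.15), or without standard replicate 1 (0.051), standard replicate 2 (0.11) or AHARIBO replicate 1 (0.46). Their reads include those of the first codons of the full transcripts, so they are no measure of intron retention.

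**Figure D4:**
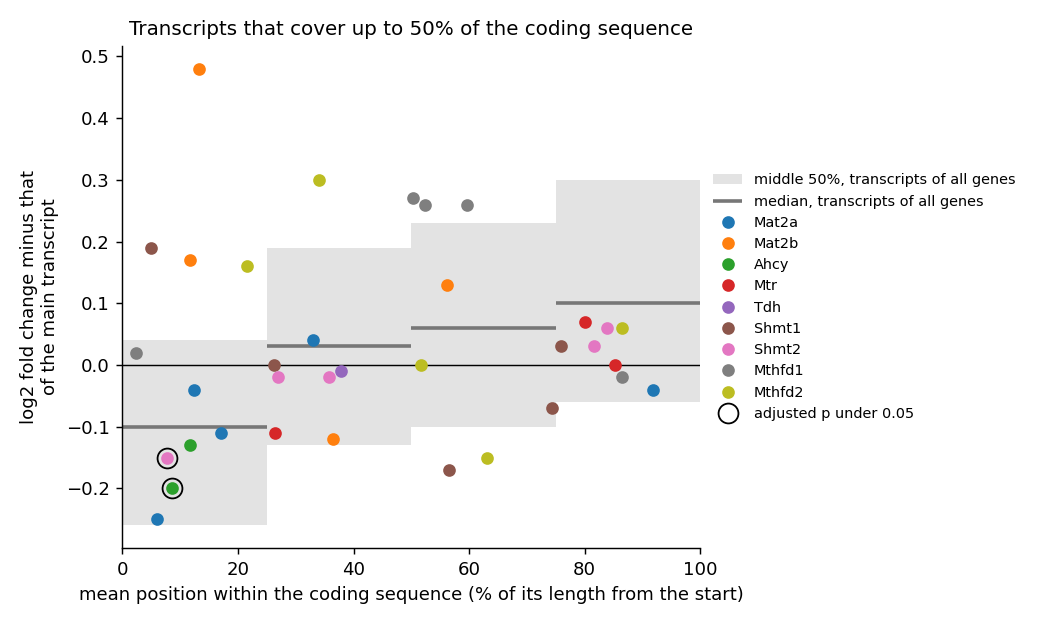
Log2 fold change of transcripts that hold at most 50% of the main coding sequence, minus that of the main transcript, against the mean position of the part they hold, for 35 transcripts of the 10 genes (coloured points, all genes but Gldc). Grey boxes and bars give the middle 50% and medians over transcripts of all genes, which run from -0.10 in the first of 4 equal parts to 0.10 in the last.

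Over all genes, transcripts centred in the first of 4 equal parts of a coding sequence had a median log2 fold change -0.10 from that of their main transcript, with 68.4% of 10464 below it, and those centred in the last part lay above it by 0.10 (rho 0.35 over 22258 transcripts). In the 10 genes, the medians were -0.04, -0.02, 0.07 and 0.03 from the first to the last part, with a rho of 0.14 over 35 transcripts that share reads. In the first part, 6 of the 11 transcripts of the 10 genes lay below their main transcript. They were those of Ahcy, Mat2a and Shmt2, while those of Mat2b, Shmt1, Mthfd1 and Mthfd2 lay above it. Mat2a transcripts with codons 1 to 47, 1 to 98 and 1 to 135 had log2 fold changes of -0.22, -0.01 and -0.09, against 0.02 for the whole. The Mat2a transcript with codons 1 to 31 had -0.25. It holds 91 coding nt, under the 100 nt asked of the 35 transcripts. None of these Mat2a transcripts passed the test. Mat2b transcripts ending at codon 75 had 0.26 and 0.57 (edgeR adjusted p = 0.48 and 0.14).

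Of 49 other genes of these pathways, 42 were tested, with 1 higher, 1 lower and 40 not passing, at a median log2 fold change of -0.04. This share is close to the background of 5.12%. The lower gene was Mri1, the isomerase of methionine salvage, which recycles the sulphur of S-adenosylmethionine left from polyamine synthesis. It had 27.6, 25.6 and 27.6 CPM in standard RIBO-seq and 20.7 and 19.0 CPM in AHARIBO RIBO-seq, and its log2 fold change was -0.43 (SE 0.10, adjusted p = 0.0064 in edgeR). Mri1 did not pass in 4 of 14 alternatives. Among them were DESeq2 (adjusted p = 0.084) and, in edgeR, protein-coding transcripts summed per gene (0.12) and the fit without standard replicate 1 (0.055). In the fit without AHARIBO replicate 2 its log2 fold change was -0.37. The higher gene was Dld, the dihydrolipoamide dehydrogenase that the glycine cleavage system shares with pyruvate dehydrogenase, at 22.5, 24.0 and 20.3 CPM against 29.5 and 26.9 CPM (log2 fold change 0.33, SE 0.10, adjusted p = 0.039). It did not pass in 7 of 14 alternatives, among them the fits without standard replicate 1 (adjusted p = 0.14), standard replicate 3 (0.13) and AHARIBO replicate 1 (0.45).

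**Figure D5:**
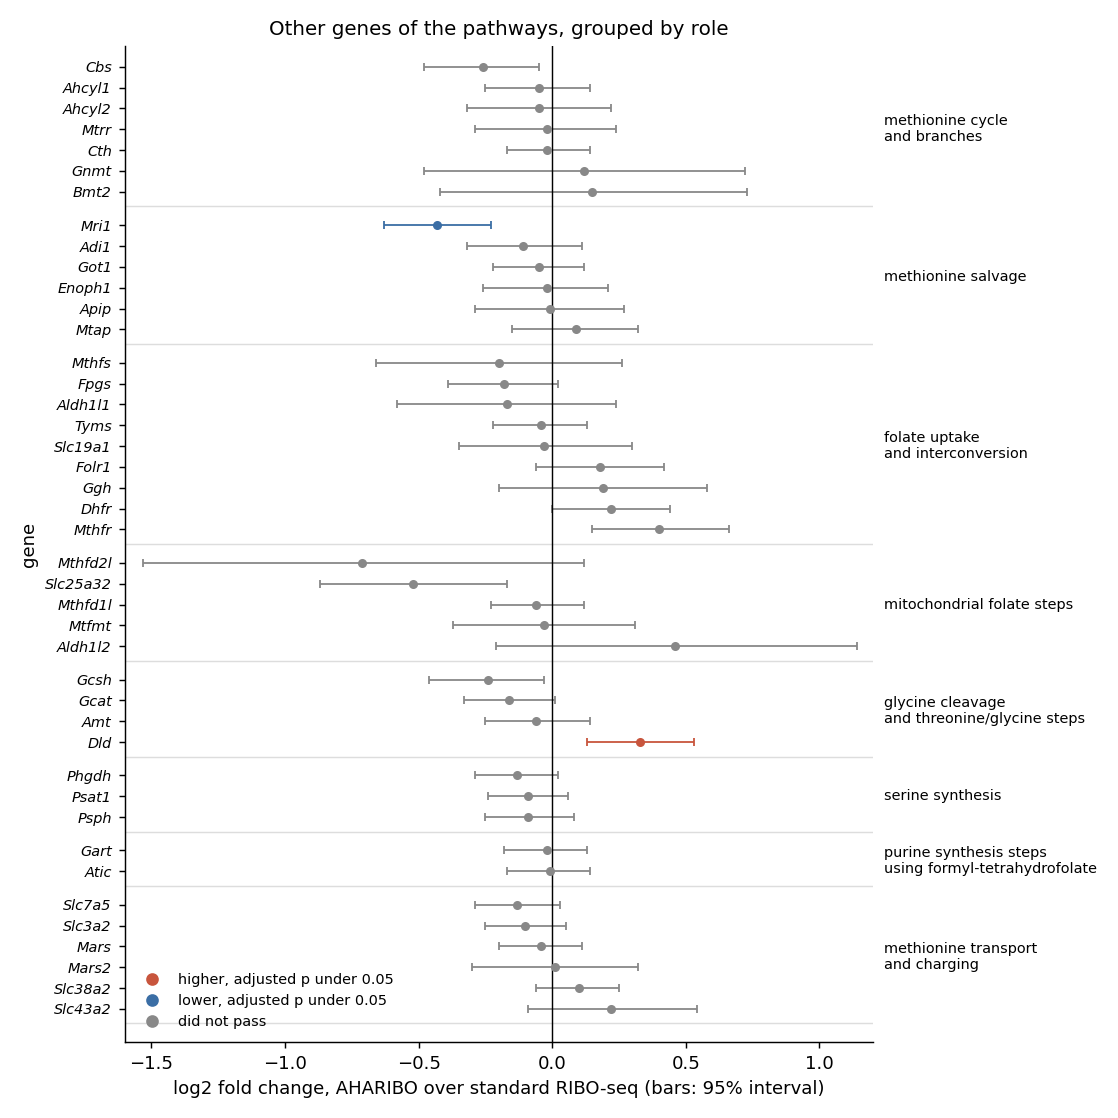
Log2 fold change with 95% interval for the 42 other pathway genes tested, grouped by role. Mri1 (blue, -0.43) and Dld (red, 0.33) passed an adjusted p of 0.05, and the other 40 did not.

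By role, 0 of 7 genes of the methionine cycle and its branches passed, 1 of 6 of methionine salvage, 0 of 9 of folate uptake and interconversion, 0 of 5 of the mitochondrial folate steps, 1 of 4 of the glycine and threonine steps, 0 of 3 of serine synthesis, 0 of 2 of purine synthesis and 0 of 6 of methionine transport and charging. All 3 genes of serine synthesis (Phgdh, Psat1 and Psph) had both AHARIBO libraries below the standard ones. Groups also did not overlap for 34.3% of the highest coding transcripts of all genes. The log2 fold changes of the 3 were -0.13, -0.09 and -0.09, and none passed (edgeR adjusted p = 0.37, 0.58 and 0.62). On average, partners of Tdh and Gldc had lower levels per kb of transcript than the enzymes themselves. Gcat, which acts after Tdh, had 23.1 CPM per kb. Amt and Gcsh, which act with Gldc, had 13.6 (SD 1.17) and 15.4 (SD 2.12) CPM per kb, against 17.2 (SD 2.01) for Gldc. The difference between Gcsh and Gldc is thus within their spread. Levels per kb of coding sequence were not compared for these partners. These genes were named after their values were seen. Under 1 CPM in every library, and not tested, were 7 genes. They were Mat1a, the synthetase of adult liver, Bhmt and Bhmt2, homocysteine methyltransferases of liver and kidney, and Ftcd, Dmgdh, Sardh and Sds, which are also known from liver. Mat1a had 1 read in AHARIBO replicate 1 and 0 in the other libraries. Over all 5 libraries, the level that 3 counts allow is 0.262 to 0.476 CPM. Mat2a, the form of other tissues, had 773 to 1453 reads.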

How the data were processed

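Ribosome footprints of mESCs were analysed in 3 standard and 2 AHARIBO RIBO-seq libraries, grouped by the labels. The authors deposited raw counts of reads per Gencode M17 transcript, with and without duplicate reads. They had trimmed reads with Trimmomatic 0.36, removed rRNA, tRNA and antisense reads and aligned with STAR to transcripts (GRCm38.p6). How reads matching several transcripts were counted is not given in the sources used here. Reads have no molecular identifiers, so duplicate removal also takes independent fragments, and intervals and floors cover counting error only where they come from counts.

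Counts without duplicates were scaled by TMM (edgeR 4.0.16, R 4.3.3), transcripts reaching 1 CPM in any library were kept, and the groups were compared with edgeR's quasi-likelihood test, Benjamini-Hochberg adjusted over 66972 transcripts. Approximate standard errors were derived from the F statistic. As an alternative test, DESeq2 1.42.0 was run. Ratios were tested by a two-sided exact permutation test. Names, coordinates and sequences came from Gencode M21, which held 98.2% of transcripts in the same version. Scripts were tested on simulated data. Columns of per-sample values not used numbered 0.

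The members and the pathway and marker lists were chosen with earlier results of these data known. The 10 members, called transcripts of members, called pathway genes and those under 1 CPM were named by rule. Alternatives covered the test, scaling, filter, replicate block, duplicates, transcripts per gene and each library left out.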

Additional observations from a re-analysis of the deposited data

How the results depend on the processing

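Under all 14 alternatives 0 of the 10 genes passed, with DESeq2 among them. Directions held in every alternative for Mat2b, Ahcy, Mtr, Tdh, Shmt1, Shmt2 and Mthfd2. Mat2a, at 0.02 in the main fit, came to 0.00 with the replicate block and without standard replicate 3, so it had no clear direction. Gldc turned to 0.00 with library sizes in place of TMM, 0.10 without standard replicate 2 and 0.07 without AHARIBO replicate 2, and Mthfd1 turned to 0.00 with duplicates kept, each with an interval around 0 (range for Gldc with each library left out, -0.14 to 0.10). The count of the 49 pathway genes passing was 2, and became 0 with DESeq2, 1 with the replicate block, 1 with duplicates kept, 0 with protein-coding transcripts summed per gene, 3 with library sizes, and 0 to 2 with each library left out. With the replicate block the Ahcy and Shmt2 retained-intron transcripts had adjusted p = 0.061 and 0.054, Mri1 0.018 and Dld 0.17. The runs on these transcripts were added after their values were seen. The ratio of Mthfd2 over Mthfd1 turned from -0.02 to 0.01 without standard replicate 3 (leave-one-out range -0.05 to 0.01), and with duplicates kept that of Mat2a over Mat2b turned to 0.03 and that of Tdh over Gldc to 0.07. The cause was not tested.

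Over all transcripts the count of calls, 3021 (1520 higher, 1501 lower), became 308 with DESeq2, 1792 with the replicate block, 28 of 14512 with coding transcripts summed, 922 of 23173 with 1 transcript per gene, and 510 (without AHARIBO replicate 1) to 3829 (without AHARIBO replicate 2) with each library left out. Library sizes in place of TMM gave 1978 higher and 1048 lower. Deviations of same-numbered libraries from their group means had an r of 0.0964 and -0.145. With 2 AHARIBO libraries these deviations mirror each other, so the values do not decide on pairing. The labels do not pair the libraries, so the numbers served as no block. With the replicate block the log2 fold changes of the 10 genes ran from -0.18 (Shmt2) to 0.13 (Mtr). With 2 AHARIBO libraries, the smallest p of a permutation test is 0.1, and the 95% intervals of the 10 genes span 0.79 to 1.25 as linear ratios.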
